A study of Mus musculus with 6 samples.

Results

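The genes described here are the 72 of 14701 rows of the deposited tables whose KEGG annotation includes the ECM-receptor interaction pathway, a catalogue of extracellular matrix proteins and the cell surface receptors that bind them. They comprise 14 collagens, 10 laminins and 19 other ligands, together 43 matrix genes, and 18 integrins and 11 other receptors, together 29 receptor genes. RNA of IEC 4.1, a mouse line labelled as intestinal epithelium, was sequenced in 2 groups of 3 samples: cells exposed for 6 h to 10 ng/ml of interferon-gamma, an inflammatory cytokine (replicates 1, 2 and 4), and untreated control cells (replicates 2, 3 and 4). No other treatment or genetic change is labelled for either group, and the labels do not say that samples came from separate cultures, so the spread between them may be technical. Libraries held 17490689 to 18678543 estimated counts. No row was at 0 in all 3 control libraries, so a matrix gene silent in untreated cells has no row here.

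Matrix proteins are secreted as large multimers. Collagen chains wind into triple helices, laminins are cross-shaped trimers of an alpha, a beta and a gamma chain that polymerize in the basement membrane, and fibronectin, tenascins and thrombospondins are modular proteins that bind both the matrix and cells. Integrins, heterodimers of an alpha and a beta subunit, bind these ligands and tether the actin cytoskeleton, while syndecans and dystroglycan bind through sugar chains and CD44 binds hyaluronan. In the gut, epithelium rests on a laminin and type IV collagen sheet, and fibrillar collagens are mainly products of mesenchymal cells below it.

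The epithelial label was not borne out by its markers. Of 12 intestinal epithelial markers 8 had a row, all 8 were under 1 CPM in every library (CPM are counts scaled to library size), and their summed level was 0.412 to 0.661 CPM with interferon-gamma and 0.686 to 0.959 CPM in controls. Of 10 mesenchymal markers 8 had a row, summing to 4692 to 4994 CPM with interferon-gamma and 4227 to 4451 CPM in controls. Most of these sums came from Vim (mean 2946 CPM with interferon-gamma, 2386 in controls) and S100a4 (1310 and 1245). Acta2 averaged 482 CPM with interferon-gamma and 507 in controls, Pdgfrb 58.6 and 88.6, Pdgfra 33 and 51.8, and Tagln 23 and 28.5. Lum stayed under 1 CPM in every library, Dcn averaged 13.8 and 7.56 CPM, and Fap and Thy1 had no row. Of 7 tested mesenchymal markers 2 rose (28.6%) and 3 fell (42.9%), against 19.9% and 18.1% of all genes tested, and their part in the results was not tested. The matrix genes are therefore described as those of the line, without a cell type. The 2 endothelial markers with a row summed to at most 0.53 CPM and the 3 leukocyte markers to at most 1.97 CPM in any library. In such bulk RNA, fewer cells of a type and less RNA per cell cannot be told apart.

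With interferon-gamma, most ECM-receptor genes that changed fell, and most did so by less than 2-fold. The low-count filter kept 49 of the 72 genes, of which 22 fell and 7 rose (edgeR quasi-likelihood test, Benjamini-Hochberg adjusted p under 0.05 over all genes tested). That is 44.9% fallen and 14.3% risen, 59.2% called in all, against 18.1% fallen, 19.9% risen and 38.1% called among all 11423 genes tested. Of the 28 tested matrix genes 15 fell (53.6%) and 4 rose (14.3%). Of the 21 tested receptor genes 7 fell (33.3%) and 3 rose (14.3%). The median log2 fold change was -0.14 over the 49 and 0.01 over all genes tested. Calls depend on abundance, so the shares are also given by level. Of the 34 ECM-receptor genes with a mean of at least 10 CPM, 20 fell and 5 rose, against 19.9% and 20.9% of all genes in that range, of which 40.8% were called. Of the 25 with at least 100 CPM, 14 fell and 5 rose, against 20.4% and 21.5% of all such genes, of which 41.9% were called. Of the 15 tested genes under 10 CPM, 2 fell and 2 rose, 13.3% each, against 12.2% and 16.7% of all such genes, of which 28.9% were called, so these low genes lie near the background. A filter that a gene can pass through 1 group alone keeps genes that differ, so these shares describe the 49 genes and not the 72. Only 3 calls reached 2-fold: Col6a3 and Lama4 rose and Itgb3 fell, all at low levels. Under total-count scaling 25 of the 49 fell and 6 rose, against 27.3% and 14.4% of all genes tested. Under upper-quartile scaling the counts were again 25 and 6, against 24.7% and 15.5% of all genes tested.

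**Figure D1:**
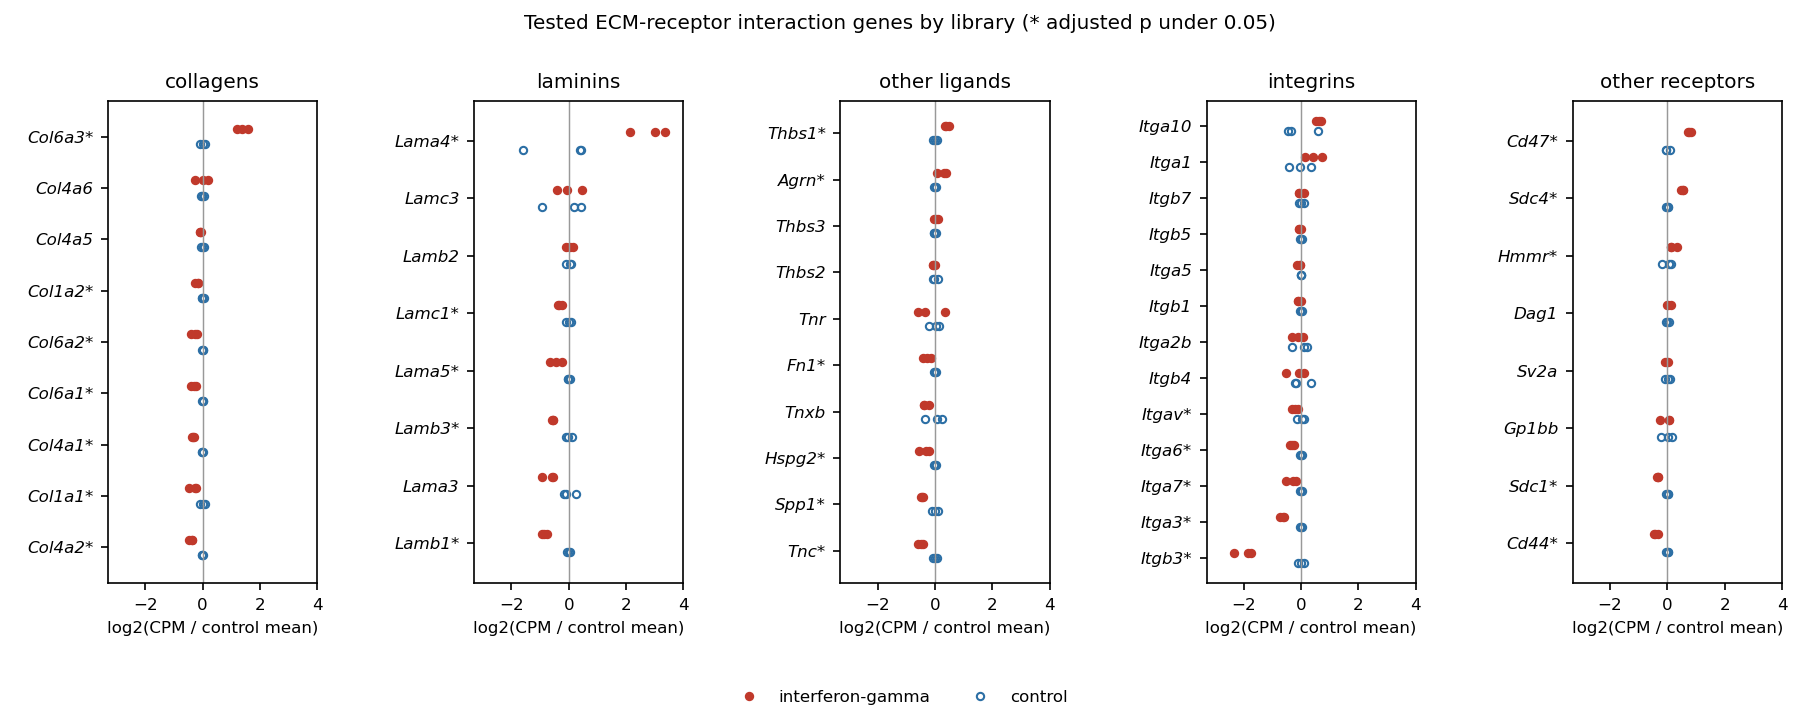
Each dot is 1 library's CPM relative to the mean of the 3 controls on a log2 scale (filled red, interferon-gamma; open blue, control) for tested genes of the 5 classes, and asterisks mark adjusted p under 0.05. Filled dots lie left of open ones for most marked collagens, laminins and integrins, and right of them for Col6a3, Lama4, Thbs1, Agrn, Cd47 and Sdc4.

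One treated library stood lower than the others for these genes. Interferon-gamma replicate 4 had the lowest CPM of the 3 treated libraries in 61.2% of the 49 tested genes, in 71.4% of the 28 tested matrix genes and in 38.7% of all genes tested. Without that library 22 of these genes fell and 6 rose, beside 2025 falls and 2187 rises among all genes. Values without it are given beside several genes.

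Levels per gene length, given as the authors' TPM (scaled for transcript length and library), were high for a subset of the genes. In controls 33 of the 72 exceeded 10 TPM and 14 exceeded 100 TPM, while 9 had no more than 1 count in each control library. The summed TPM of the 43 matrix genes was 2187 ± 143 with interferon-gamma and 2903 ± 30.2 in controls (mean ± SD, n = 3 each). The 29 receptor genes summed to 1648 ± 49.9 TPM with interferon-gamma and 1747 ± 62.5 TPM in controls. Of these sums, collagens gave 839 ± 61.4 TPM with interferon-gamma and 1109 ± 11.8 TPM in controls, and laminins 167 ± 14.5 and 252 ± 11.4 TPM. The other ligands gave 1181 ± 72.7 TPM with interferon-gamma and 1542 ± 35.8 TPM in controls, and integrins 848 ± 24.7 and 1005 ± 37 TPM. The other receptors gave the single higher sum, 800 ± 25.2 TPM with interferon-gamma and 742 ± 29.1 TPM in controls. TPM values are relative to the whole library, and the median log2 TPM ratio of all tested genes was -0.10, so a TPM ratio carries that general shift. Within classes, control levels of neighbouring genes above 10 TPM were apart except for Agrn and Tnc, Dag1 and Cd47, and Cd47 and Sdc1, whose ranges overlapped.

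**Figure D2:**
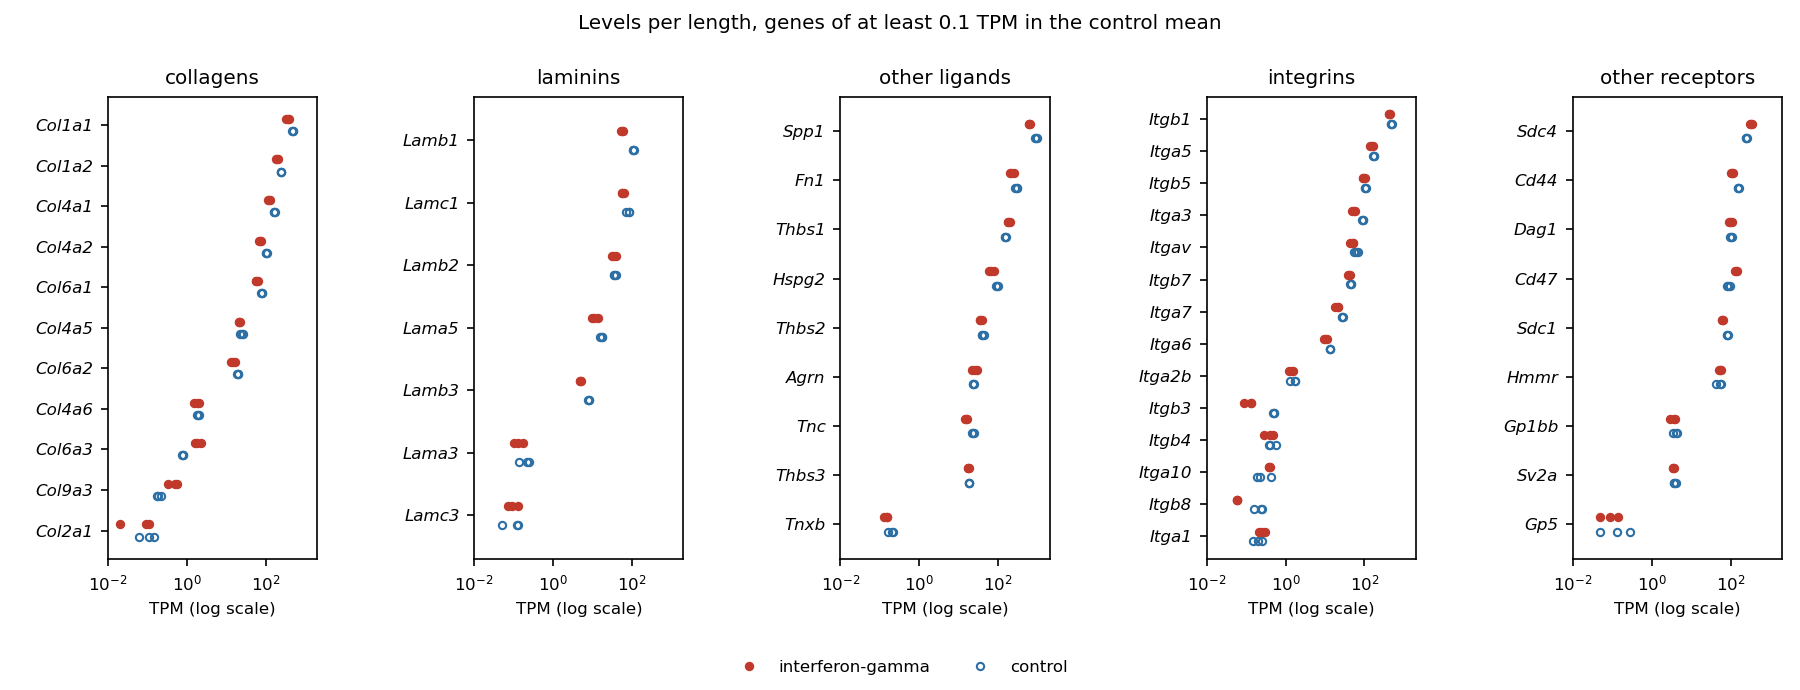
TPM on a log axis in each library (filled red, interferon-gamma; open blue, control) for genes with a control mean of at least 0.1 TPM, ordered by control level within each class. Spp1, Itgb1 and Col1a1 head their classes, and Itgb3 lies more than 100-fold below Itgb1 in both groups.

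Upstream sequence is shown for the pairs of genes of at least 100 CPM with the largest falls and rises for which the RefSeq promoter table (GRCm38.p6) leaves at least 100 bases outside annotated exons and the gene's own span. Each stretch ends toward the gene and reads 5′ to 3′ on the gene's strand, and capitals mark GC boxes (GGGCGG on either strand, bound by Sp family factors). Lamb1 and Itga3 fell, and Sdc4 and Agrn rose. The Lamb1 stretch is chr12:31265043-31265145 (plus), Itga3 chr11:95076845-95076964 (minus), Sdc4 chr2:164443189-164443438 (minus) and Agrn chr4:156197534-156197738 (minus).
Lamb1: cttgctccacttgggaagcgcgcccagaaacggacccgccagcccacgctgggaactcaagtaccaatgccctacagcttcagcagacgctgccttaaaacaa
Itga3: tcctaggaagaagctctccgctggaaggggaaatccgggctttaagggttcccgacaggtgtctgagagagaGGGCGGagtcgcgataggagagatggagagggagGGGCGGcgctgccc
Sdc4: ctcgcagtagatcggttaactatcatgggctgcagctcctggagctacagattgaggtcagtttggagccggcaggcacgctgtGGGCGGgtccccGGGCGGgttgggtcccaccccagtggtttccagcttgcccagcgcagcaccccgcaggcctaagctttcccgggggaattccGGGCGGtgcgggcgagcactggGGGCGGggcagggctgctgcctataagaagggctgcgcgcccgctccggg
Agrn: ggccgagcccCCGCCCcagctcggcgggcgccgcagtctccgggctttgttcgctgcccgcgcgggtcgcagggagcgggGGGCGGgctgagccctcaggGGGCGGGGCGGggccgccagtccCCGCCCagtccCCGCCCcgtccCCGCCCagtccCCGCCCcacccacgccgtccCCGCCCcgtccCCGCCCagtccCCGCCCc
The Agrn stretch holds 11 GC boxes in 205 bases, the Sdc4 stretch 4 in 250 and the Itga3 stretch 2 in 120. The Lamb1 stretch of 103 bases holds none, although Lamb1 holds a GC box nearer its start, outside the stretch. The stretches differ in length and in distance from the start, so these counts do not compare the genes.

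Interferon-gamma acts on promoters through the GAS element, and IRF factors bind the related ISRE element. In the 250 bases before the start, on both strands, TTCNNNGAA (GAS) was found in 4 of the 55 ECM-receptor genes with an entry, 7.27%, and in 8.13% of all 27025 genes. None of the 5 risen and none of the 15 fallen genes with an entry held it. GAAA followed by any 2 bases and GAAA, a core of the ISRE that can overlap the GAS letters, was found in 7.27% of the 55 genes and 3.46% of all genes, including 2 fallen genes, among them Itga3, and none of the risen ones. The GC box was present in 52.7% of the 55 genes, in 4 of the 5 risen and 9 of the 15 fallen ones, and in 35.4% of all genes. It was present in 52.9% of the 17 genes not called and 38.9% of the 18 not tested. The 27025 genes are those of the promoter table, whether or not they had a row here. These shares are therefore not matched for expression, and its part in them was not tested. The match in Itga3 is shown in capitals with 10 bases on each side, at chr11:95076795-95076824 (minus).
Itga3: gcggggacctTTTCTCTTTCcccggaagga
It begins 100 bases before a RefSeq start of Itga3 that lies inside the annotated span of the gene, so it is within that span and outside the printed stretch. A match is a run of letters and not evidence of binding.

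Among collagens, both chains of type I, 2 chains of type IV and 2 of type VI fell, and 1 low chain of type VI rose. Of 9 tested collagen genes 6 fell (66.7%) and 1 rose (11.1%), against 18.1% and 19.9% of all genes tested. The median log2 fold change was -0.28. Col1a1 and Col1a2, the chains of type I collagen, were the highest, at 355 and 193 TPM with interferon-gamma and 480 and 239 TPM in controls. In CPM, Col1a1 (chromosome 11, 94936224 to 94953042) had 1365, 1414 and 1184 with interferon-gamma against 1760, 1554 and 1655 in controls (log2 -0.33 ± 0.0937, SE; adjusted p = 0.000277). The groups did not overlap, as in 23.3% of all genes tested in this direction, and the fall was -0.25 without interferon-gamma replicate 4. Col1a2 averaged 627 ± 29.8 CPM with interferon-gamma and 720 ± 19.5 CPM in controls (log2 -0.20, adjusted p = 0.00392), with -0.16 when that library was left out.

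Col4a1 and Col4a2 encode the chains of the common type IV collagen network of basement membranes. Col4a2 had 298, 295 and 277 CPM with interferon-gamma against 391, 380 and 383 CPM in controls (log2 -0.41 ± 0.0359, adjusted p = 1.07e-06). Col4a1 had 515, 493 and 503 CPM with interferon-gamma against 644, 630 and 622 CPM in controls (log2 -0.33 ± 0.0235, adjusted p = 1.18e-05). All 3 treated libraries lay below all 3 controls for both genes. The pair is arranged head to head: by the RefSeq starts on GRCm38.p6, Col4a1 begins at chromosome 8 position 11312826 on the minus strand and Col4a2 at 11312805 on the plus strand, with 22 bases common to both first exons. The ratio of their TPM was 1.69 ± 0.0716 with interferon-gamma and 1.60 ± 0.0188 in controls. Another head-to-head pair, Col4a5 and Col4a6 on the X chromosome, has 1342 bases between its starts. Col4a5 averaged 86.6 CPM with interferon-gamma and 91.7 CPM in controls (log2 -0.08, adjusted p = 0.244). It passed the test with upper-quartile (adjusted p = 0.0458) or total-count scaling (adjusted p = 0.03). Under those scalings the median shift in log2 fold change over all genes was -0.05 and -0.07. Col4a6 had log2 -0.01 (adjusted p = 0.975) at 7.24 and 7.29 CPM, and its log2 value was 0.11 without interferon-gamma replicate 4 and 0.01 without control replicate 4. Both were named after their values were seen.

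The microfibril-forming type VI collagen moved in both directions across its chains. Col6a1 averaged 144 ± 7.43 CPM with interferon-gamma and 178 ± 2.91 CPM in controls (log2 -0.31, adjusted p = 5.65e-05). Col6a2 averaged 35 ± 2.8 CPM with interferon-gamma and 42.4 ± 0.919 CPM in controls (log2 -0.28, adjusted p = 0.0024). Without interferon-gamma replicate 4 the log2 values were -0.27 for Col6a1 and -0.21 for Col6a2. Col6a3, the largest chain of the trimer, rose: it had 13.2, 11.3 and 10.1 CPM with interferon-gamma against 4.68, 4.1 and 4.38 CPM in controls (log2 1.40 ± 0.125, adjusted p = 8.3e-09). Even so its level per length stayed the lowest of the 3 chains, 1.91 TPM with interferon-gamma and 0.783 TPM in controls, against 58.9 and 78.9 TPM for Col6a1.

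A laminin chain had the largest fall among the 25 genes of the pathway with at least 100 CPM. Of 9 tested laminin genes 5 fell (55.6%) and 1 rose (11.1%), against 18.1% and 19.9% of all genes tested. The median log2 fold change was -0.43. Lamb1, a beta chain (chromosome 12, 31265146 to 31329644), had 210, 199 and 188 CPM with interferon-gamma against 362, 368 and 348 CPM in controls (log2 -0.85 ± 0.0522, adjusted p = 2.51e-11), with no overlap. That is a change of -44.6%. Its usual partners had smaller log2 values. The gamma chain Lamc1 averaged 284 ± 12.6 CPM with interferon-gamma and 355 ± 19.7 CPM in controls (log2 -0.32, adjusted p = 5.55e-05). The alpha chain Lama5 had 96.4, 82.9 and 72.5 CPM with interferon-gamma against 112, 111 and 116 CPM in controls (log2 -0.43 ± 0.121, adjusted p = 6.3e-05), and -0.34 without interferon-gamma replicate 4. Lamb2, the beta chain that can replace Lamb1, averaged 121 ± 10.8 CPM with interferon-gamma and 119 ± 6.56 CPM in controls (log2 0.03, adjusted p = 0.749), and its log2 value was below 0 under several alternatives. The ratio of Lamb1 to Lamb2 in TPM was 1.56, 1.58 and 1.68 with interferon-gamma and 2.92, 3.24 and 2.73 in controls.

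Among the less abundant laminin chains, Lamb3, a beta chain of the epithelial anchoring laminin, had 12.3, 12.3 and 12.1 CPM with interferon-gamma against 19.9, 16.9 and 17.9 CPM in controls (log2 -0.57 ± 0.0688, adjusted p = 1.78e-05). The alpha chain of the same trimer, Lama3, averaged only 0.563 CPM with interferon-gamma and 0.902 CPM in controls, and its log2 value of -0.67 did not pass (adjusted p = 0.0985). Lama4, an alpha chain best known from blood vessel and muscle basement membranes, had 29, 23 and 12 counts with interferon-gamma against 1, 4 and 4 counts in controls (log2 2.87 ± 0.458, adjusted p = 3.46e-05). It passed the filter through the treated libraries alone and is absent from the genes tested when 1 CPM is required in 3 samples. Lama3 and Lama4 were named after their values were seen.

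Of the other ligands, 4 of 10 tested fell (40%) and 2 rose (20%), against 18.1% and 19.9% of all genes tested. The risen share is near that of all genes, and the median log2 fold change was -0.21. Spp1, which encodes osteopontin, a phosphorylated integrin and CD44 ligand, was the most abundant gene of the pathway per length, at 618 TPM with interferon-gamma and 908 TPM in controls. It had 472, 459 and 470 CPM with interferon-gamma against 685, 636 and 592 CPM in controls (log2 -0.45 ± 0.0621, adjusted p = 9.88e-07). Tnc, the tenascin of remodelling tissue, had 65.2, 68.5 and 61.7 CPM with interferon-gamma against 92.5, 86.7 and 96.7 CPM in controls (log2 -0.50 ± 0.0626, adjusted p = 6.56e-07). Neither gene's groups overlapped. Spp1 shares 18.8% of its exonic bases with Gm42793 on the same strand in GENCODE M21.

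Fibronectin and perlecan also fell, with a wider spread among treated libraries. Fn1, fibronectin, had 1235, 1124 and 1018 CPM with interferon-gamma against 1350, 1361 and 1397 CPM in controls (log2 -0.28 ± 0.0819, adjusted p = 0.000678). Hspg2, the basement membrane proteoglycan perlecan, had 683, 621 and 531 CPM with interferon-gamma against 774, 761 and 807 CPM in controls (log2 -0.35 ± 0.109, adjusted p = 0.000256). In both genes replicate 4 was the lowest treated library, and without it the log2 values were -0.21 and -0.26.

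Of 3 tested thrombospondins 1 rose, where 19.9% of all genes tested rose. Thbs1, which activates latent TGF-beta and binds Cd47, had 705, 658 and 649 CPM with interferon-gamma against 510, 527 and 484 CPM in controls (log2 0.40 ± 0.0517, adjusted p = 2.41e-06), so all treated libraries lay above all controls, as in 24.7% of all genes tested. Thbs2 had log2 -0.05 (adjusted p = 0.498). Thbs3 had log2 0.04 (adjusted p = 0.705), which was -0.02 with upper-quartile and -0.04 with total-count scaling. Both were named after their values were seen. Agrn, agrin, a dystroglycan-binding proteoglycan, had 128, 122 and 105 CPM with interferon-gamma against 100, 95.8 and 101 CPM in controls (log2 0.25 ± 0.0897, adjusted p = 0.00299). That call was lost with the replicate number as a block (log2 0.17, adjusted p = 0.0653).

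Among integrins 5 of 13 tested genes fell (38.5%) and none rose, against 18.1% and 19.9% of all genes tested. The median log2 fold change was -0.10. DESeq2 also called 0 rises, and 0 had an unadjusted p under 0.05. The common beta subunit Itgb1 was the most abundant, at 426 TPM with interferon-gamma and 486 TPM in controls. It averaged 1098 ± 44.2 CPM with interferon-gamma and 1160 ± 37.2 CPM in controls (log2 -0.08, adjusted p = 0.235), and passed with upper-quartile (adjusted p = 0.0461) or total-count scaling (adjusted p = 0.0148). Itga5, which pairs with it as the classical fibronectin receptor, averaged 410 ± 17.6 CPM with interferon-gamma and 434 ± 2.14 CPM in controls (log2 -0.08, adjusted p = 0.215). Itga5 passed with the same scalings (adjusted p = 0.0399 and 0.0169). The median shift in log2 fold change over all genes was -0.05 and -0.07 under these scalings. Itgb5, a vitronectin-binding beta subunit, had log2 -0.05 (adjusted p = 0.445). Itgb7, the beta subunit of gut-homing lymphocytes, had log2 -0.02 (adjusted p = 0.878) and was picked after its values were seen.

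Among the 5 fallen integrins were the laminin-binding alpha subunits Itga3, Itga6 and Itga7, while the common beta subunit Itgb1 was not called. Itga3 (chromosome 11, 95044475 to 95076844) had 167, 163 and 152 CPM with interferon-gamma against 256, 248 and 254 CPM in controls (log2 -0.65 ± 0.0433, adjusted p = 1.31e-09). That is a change of -36.3%, and the ratio of Itga3 to Itga5 in TPM was 0.357, 0.351 and 0.351 with interferon-gamma and 0.529, 0.515 and 0.53 in controls. Itga6 averaged 38.1 ± 2.22 CPM with interferon-gamma and 47.5 ± 1.34 CPM in controls (log2 -0.32, adjusted p = 0.00037). Itga7, the laminin receptor of muscle, averaged 51 ± 6.04 CPM with interferon-gamma and 64 ± 2.15 CPM in controls (log2 -0.33, adjusted p = 0.000967). Its log2 value was -0.23 without interferon-gamma replicate 4.

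The classical vitronectin receptor pairs Itgav with Itgb3. Itgav, the alpha subunit, had 217, 202 and 234 CPM with interferon-gamma against 231, 271 and 256 CPM in controls (log2 -0.22 ± 0.0912, adjusted p = 0.00912). Its groups overlapped, and the call was lost without interferon-gamma replicate 2 (log2 -0.16, adjusted p = 0.071). Its level was 48.3 TPM with interferon-gamma and 60.7 TPM in controls. Itgb3, the beta subunit best known from platelets and osteoclasts, had 6, 9 and 8 counts with interferon-gamma against 34, 29 and 32 counts in controls (log2 -1.94 ± 0.154, adjusted p = 1.12e-05). Its level was 0.117 TPM with interferon-gamma and 0.5 TPM in controls, and the gene passed the filter through the controls alone. Itga10, a collagen receptor subunit picked once its values were known, had a log2 value of 0.61 that did not pass (adjusted p = 0.112). It passed without control replicate 4, the control in which it was highest (log2 1.00, adjusted p = 0.0218). Itga10 shares 33.5% of its exonic bases with Gm42957 on the same strand.

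The other receptors split, with 3 rises (37.5%) and 2 falls (25%) among 8 tested, against 19.9% and 18.1% of all genes tested. Their median log2 fold change was 0.01. Cd47, the thrombospondin receptor that also signals to phagocytes through SIRP-alpha (chromosome 16, 49851328 to 49912503), had 189, 184 and 201 CPM with interferon-gamma against 108, 121 and 109 CPM in controls (log2 0.76 ± 0.065, adjusted p = 4.21e-10). Sdc4, a heparan sulfate syndecan of focal adhesions, had 483, 484 and 462 CPM with interferon-gamma against 341, 321 and 342 CPM in controls (log2 0.51 ± 0.0377, adjusted p = 4.13e-08). Its relative Sdc1, the main syndecan of epithelia, had 112, 113 and 111 CPM with interferon-gamma against 144, 137 and 143 CPM in controls (log2 -0.34 ± 0.0226, adjusted p = 1.2e-05). The TPM ratio of Sdc4 to Sdc1 was 5.41 ± 0.118 with interferon-gamma and 3.01 ± 0.0439 in controls. Cd44, the hyaluronan receptor, had 293, 287 and 321 CPM with interferon-gamma against 403, 406 and 389 CPM in controls (log2 -0.41 ± 0.0533, adjusted p = 2.13e-06).

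Dag1 and Hmmr lay close to their controls. Dag1, dystroglycan, averaged 334 ± 16.1 CPM with interferon-gamma and 324 ± 11.1 CPM in controls (log2 0.04, adjusted p = 0.558), and its log2 value was -0.01 with upper-quartile and -0.03 with total-count scaling. Hmmr, a hyaluronan-binding protein of the mitotic spindle, had 123, 121 and 141 CPM with interferon-gamma against 99, 121 and 115 CPM in controls (log2 0.20 ± 0.111, adjusted p = 0.0279). Its groups overlapped, and its counts were not all whole numbers. The call was lost without control replicate 2 (log2 0.12, adjusted p = 0.169), control replicate 4 (0.0596) or interferon-gamma replicate 4 (0.125), and with upper-quartile (0.0936) or total-count scaling (0.163). Gp1bb shares 91.1% of its exonic bases with Sept5 on the same strand in GENCODE M21, so its reads cannot be assigned to it alone.

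**Figure D3:**
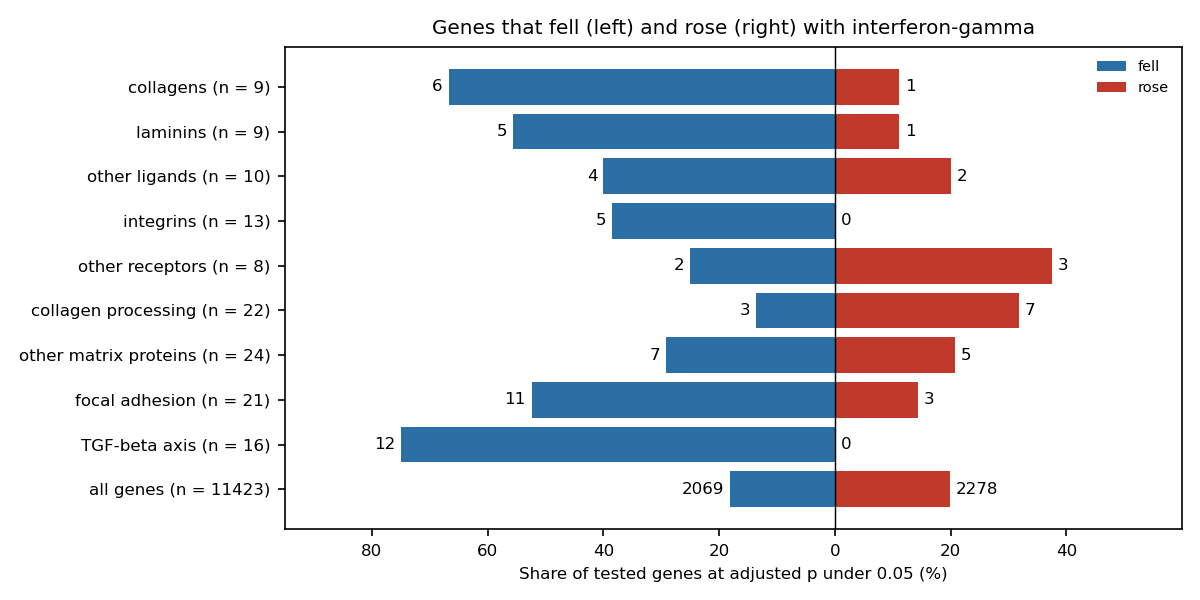
Bars give the percentage of tested genes in each list that fell (blue, left) or rose (red, right) at adjusted p under 0.05, with gene counts at the bar ends. Collagens (6 of 9) and the TGF-beta axis (12 of 16) show the longest bars on the left, against 2069 of 11423 for all genes. The gene lists were chosen with earlier results of these data known.

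The 23 genes too low to be tested had at most 16 counts in any library. They were Col9a3, Col2a1, Col6a4, Col4a4, Col6a5, Lama2, Comp, Npnt, Frem2, Tnn, Chad, Vtn, Vwf, Fras1, Reln, Itgb8, Itgb6, Itga11, Itga2, Itga4, Gp5, Cd36 and Sv2b. Tnn, a tenascin, had 9, 11 and 9 counts with interferon-gamma against 2, 2 and 2 counts in controls. Col9a3 had 9, 16 and 14 counts with interferon-gamma against 5, 6 and 5 counts in controls. Itgb8, a TGF-beta-activating integrin subunit, had 2, 2 and 2 counts with interferon-gamma against 8, 5 and 8 counts in controls. Groups of these 3 genes did not overlap, as in 24.7% of all genes tested for rises and 23.3% for falls. Frem2 and Cd36 also had all treated libraries above all controls in CPM. With no low-count filter Tnn, Col9a3 and Itgb8 passed edgeR's test, and Frem2 and Cd36 did not. These genes were chosen after their values were seen, so passing a test on the same values adds no support. The shares above are of genes that passed the low-count filter, which these genes did not. Genes at 0 in all 3 treated libraries numbered 5, each with 1 count in 1 control.

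Beside the pathway were set 4 companion lists of genes that build, bind or regulate this matrix. They were chosen with earlier results of these data known, so their shares are descriptions and not independent support. Among all genes tested 19.9% rose and 18.1% fell, and the shares in each list are read against these. Of 22 tested collagen processing genes 7 rose (31.8%) and 3 fell (13.6%), with a median log2 fold change of 0.06. Under total-count scaling 5 rose and 5 fell, beside 14.4% risen and 27.3% fallen of all genes tested. Plod3, a collagen lysyl hydroxylase, averaged 273 ± 10.6 CPM with interferon-gamma and 182 ± 3.66 CPM in controls (log2 0.59, adjusted p = 5.12e-09). The crosslinking enzymes Loxl3 and Loxl4 rose by log2 0.46 and 0.36 (adjusted p = 2.13e-06 and 3.85e-05). Their relative Lox fell, with 262 ± 18.2 CPM with interferon-gamma and 329 ± 17.6 CPM in controls (log2 -0.33, adjusted p = 9.77e-05), as did the procollagen proteinase enhancer Pcolce2 (log2 -0.76, adjusted p = 7.41e-09). Colgalt1, a collagen galactosyltransferase, had log2 -0.14 (adjusted p = 0.0265), and that call was lost with the replicate block (adjusted p = 0.0742), without interferon-gamma replicate 4 (adjusted p = 0.0545) or control replicate 4 (0.0658).

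Of 24 tested matrix genes outside the KEGG annotation, 7 fell (29.2%) and 5 rose (20.8%), with a median log2 fold change of -0.08. The risen share is near that of all genes, and 4 fell without control replicate 4, beside 1798 falls among all genes. Under total-count scaling 11 fell, beside 27.3% of all genes tested. The fibrillar chain Col3a1 averaged 254 ± 12.2 CPM with interferon-gamma and 340 ± 12.7 CPM in controls (log2 -0.42, adjusted p = 1.37e-06), and Col5a1 and Col16a1 had log2 -0.27 and -0.26 (adjusted p = 0.000662 and 0.00142). Col5a1 had log2 -0.21 without interferon-gamma replicate 4. The hyaluronan-binding proteoglycan Vcan rose to 134 ± 3.82 CPM with interferon-gamma, against 86 ± 5.86 CPM in controls (log2 0.64, adjusted p = 8.15e-09). The microfibril protein Fbn1 and the small proteoglycan Dcn rose by log2 0.44 and 0.87 (adjusted p = 2.55e-07 and 1.92e-06), and Dcn is also among the mesenchymal markers.

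Focal adhesion genes, which join integrins to actin, fell in 11 of 21 tested (52.4%) and rose in 3 (14.3%), with a median log2 fold change of -0.25. Zyx, zyxin, averaged 275 ± 13.4 CPM with interferon-gamma and 395 ± 25.2 CPM in controls (log2 -0.52, adjusted p = 1.53e-07). Tns3, a tensin, fell by log2 -0.48 (adjusted p = 5.07e-08) and Actn1, an alpha-actinin, by log2 -0.42 (adjusted p = 5.77e-07). The rises were Lims1, which encodes PINCH, Ilk and Fermt2, which encodes a kindlin, at log2 0.59, 0.16 and 0.17 (adjusted p = 2.46e-07, 0.013 and 0.0199). Without control replicate 4, or with upper-quartile or total-count scaling, 1 of the list rose. Of all genes tested 15.5% rose with upper-quartile and 14.4% with total-count scaling, and 1851 rose without control replicate 4. Ilk was lost without control replicate 4 (adjusted p = 0.115), control replicate 3 (0.0593) or interferon-gamma replicate 2 (0.0559). Fermt2 was lost without control replicate 2 (0.0554), control replicate 4 (0.106) or interferon-gamma replicate 4 (0.0868).

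The TGF-beta axis, whose ligands drive matrix gene transcription, fell in 12 of 16 tested genes (75%) and rose in none. The median log2 fold change was -0.46. The list was chosen with earlier results of these data known and mixes genes of different roles. Its count is therefore a description and does not measure signalling. Falls numbered 11 with DESeq2, 10 with the replicate block, 10 to 11 over left-out libraries and 13 with upper-quartile or total-count scaling. DESeq2 also called 0 rises, and 0 had an unadjusted p under 0.05. The signal transducer Smad3 averaged 20.4 ± 1 CPM with interferon-gamma and 39.9 ± 2.21 CPM in controls (log2 -0.97 ± 0.0622, adjusted p = 3.48e-10). The ligand gene Tgfb1 averaged 38.6 ± 2.44 CPM with interferon-gamma and 63 ± 2.1 CPM in controls (log2 -0.70 ± 0.0589, adjusted p = 7.69e-09). Whether these falls bear on those of the matrix genes was not tested.

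**Figure D4:**
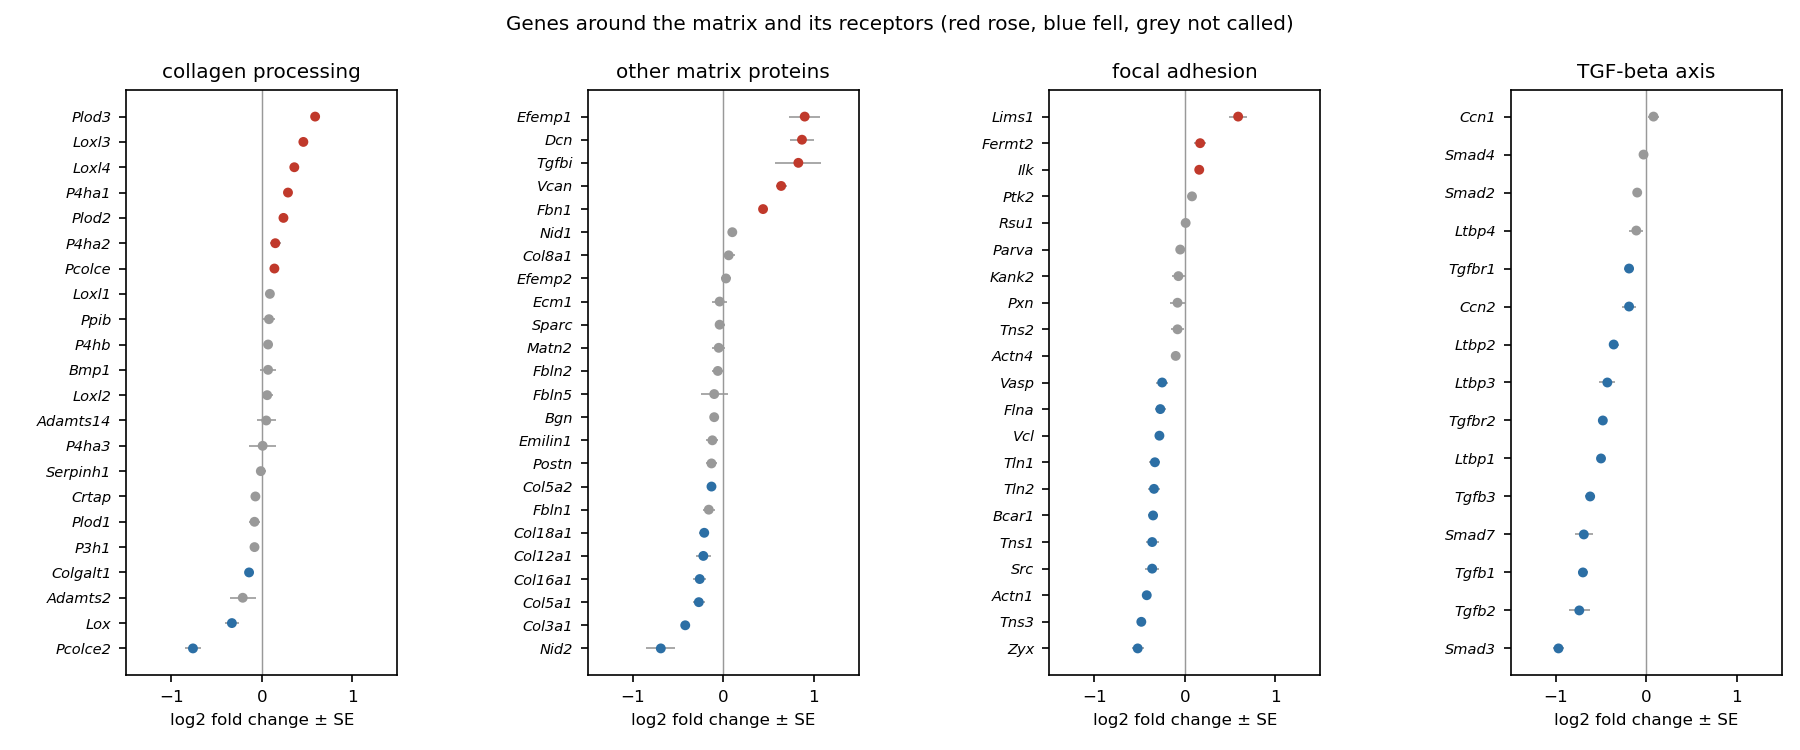
Points give the log2 fold change, interferon-gamma over control, of tested genes in the 4 companion lists, with bars of 1 SE between replicates (red rose, blue fell, grey not called). The TGF-beta axis lies almost wholly left of 0, while collagen processing genes lie on both sides with 7 rises and 3 falls.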

How the data were processed

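RNA-seq of 6 samples was analysed from the deposited tables. Per the submitters' processing notes, HISAT and HISAT2 were among the tools and mm10 and GRCm38.p6 among the builds, without roles. Not given in the sources used here are the counting program and its use of strand. Per the file headers, the authors deposited read counts, TPM and FPKM values for each gene. The deposited estimated counts were not whole for 6.8% to 7.37% of genes per library, and were rounded here. FPKM, as deposited, entered no test.

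The pathway was read from the tables' KEGG column. Its members and the companion lists were chosen with earlier results of these data known. edgeR 4.0.16 in R 4.3.3 was fitted to all genes (filterByExpr, minimum count 10, 11423 kept; TMM scaling; glmQLFit with robust=TRUE). Benjamini-Hochberg adjustment ran over the whole table, and calls are adjusted p under 0.05. CPM use TMM-scaled library sizes, and standard errors come from log2 CPM with a prior count of 2, which can make them too small for genes of few counts. Positions are from RefSeq on GRCm38.p6. Named by rule were the called genes with a mean of at least 1 CPM, at most 8 per class and direction, the 3 of highest control TPM per class, and up to 3 per companion list and direction. Of the genes so named, 2 are not reported here or drawn in the gene plots, though the counts over lists hold them. The fit was tested on simulated data. DESeq2 1.42.0, other scalings and filters, a replicate block and left-out libraries were tried. Tables and figures used Python 3.11.15, pandas 2.3.3 and matplotlib 3.10.9.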

Additional observations from a re-analysis of the deposited data

How the results depend on the processing

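Of the 29 calls in the pathway, 28 or 29 were kept with the same direction under each alternative, and none turned. DESeq2 and RLE scaling kept all 29 and added none. Risen genes numbered 6 to 8 and fallen genes 21 to 22 over left-out libraries. Among all genes 1851 to 2187 rose and 1710 to 2025 fell in the same fits. With the replicate number as a block, 6 rose and 22 fell, and among the other ligands 1 rose. Only numbers 2 and 4 are common to both groups, and same-numbered libraries had correlations of 0.177 and -0.117 between their deviations from the group means, so the numbers were not taken as pairs.

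With no filter 2 collagens rose, Col9a3 being the gene gained. With 1 CPM in 3 samples 0 laminins rose, since that filter drops Lama4. Risen collagens ran from 1 to 2 and risen integrins from 0 to 1 over left-out libraries, the genes gained being Col9a3 and Itga10. Fallen collagen processing genes numbered 5 on total counts, where 5 rose, and fallen matrix genes outside the annotation 11 with upper-quartile scaling and on total counts, and 4 to 7 over left-out libraries. Risen focal adhesion genes numbered 1 with either scaling and 1 to 3 over left-out libraries. Of all genes tested 24.7% fell and 15.5% rose with upper-quartile scaling, and 27.3% fell and 14.4% rose on total counts. The median shift in log2 fold change over all genes was -0.05 with upper-quartile scaling and -0.07 on total counts. The cause of the changes with scaling or left-out libraries was not tested.

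Among the named genes, changes of sign were limited to 5 uncalled ones. Lamb2 had log2 -0.02 with upper-quartile scaling, -0.04 on total counts, -0.08 with the block and -0.04 to 0.10 over left-out libraries. Dag1 had -0.01, -0.03, -0.00 and -0.01 to 0.07 under the same settings. Thbs3 had -0.02 with upper-quartile scaling and -0.04 on total counts. Itgb7 had 0.01 with the block and -0.08 to 0.04 over left-out libraries, and Col4a6 ran from -0.12 to 0.11. Counting error limits what can be said of genes with few counts, such as Lama4, Itgb3 and the 23 untested ones.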
